A study of Homo sapiens with 2 samples.

Results

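The clustered histone genes are the genes of chromatin's main histones that sit together in the genome. They were taken from the deposited table as every mRNA row whose symbol starts with HIST1H, HIST2H, HIST3H or HIST4H, which gave 70 of 19784 mRNA genes and of 40205 genes in all. The symbol gave the histone class (H1, H2A, H2B, H3 or H4) and the cluster number. RNA was sequenced from RKO, an established human colorectal carcinoma line, and the labels give 2 groups with 1 library each: cells transfected with an siRNA against hnRNPU (sihnRNPU, the knockdown) and cells transfected with a control siRNA (siNC). hnRNPU binds RNA and DNA in the nucleus, and the study asked how the mRNA profile differs once it is knocked down. With 1 library per group, no difference below has a replicate check and no test across conditions was possible. "Higher" and "lower" therefore describe these 2 libraries only.

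Core histones H2A, H2B, H3 and H4 form the protein spool around which DNA is wound, and linker histone H1 binds where the DNA enters and leaves it. Most clustered genes are copied into RNA in S phase, have no introns, and give mRNAs that end in a conserved stem-loop in place of a poly(A) tail. The stem-loop is bound by SLBP and the end is cut with the help of the U7 small nuclear RNP. The sources used here do not say whether poly(A) selection was used, so the share of each histone mRNA that was captured is not known.

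The stem-loop is shown because it marks these mRNAs and because its stem differed between H4 and the other core classes. GENCODE 29 transcripts were searched for a run of 16 bases. Its 6-base stem had to start with GG, go on in C or T and end in T. A 4-base loop starting with T and the matching stem had to follow. This run was in 31 of the 70 members, against 19 of 19598 other coding genes (0.0969%). Many annotated transcripts stop at or near the coding end, so the 39 members without the run are not shown to lack it. The following 4 lines give the run with its flanks, in the sense of the mRNA and 5′ to 3′, with the stem bases in capitals and the loop in lower case.

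HIST1H2AC: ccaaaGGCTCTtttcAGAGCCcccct

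HIST2H2AA3: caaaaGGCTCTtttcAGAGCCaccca

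HIST1H4E: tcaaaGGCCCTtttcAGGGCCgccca

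HIST4H4: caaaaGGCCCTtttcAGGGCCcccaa

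All 6 H2A, 11 H2B and 6 H3 genes with the run had the stem GGCTCT, and all 8 H4 genes had GGCCCT. The search itself fixed the GG start and the T end of the stem and left C or T open between them. The annotated transcript of HIST1H2AC went on for 1114 bases past the stem-loop, that of HIST1H4E for 1022 and that of HIST4H4 for 169, while that of HIST2H2AA3 ended after 35. The 9 members in which every annotated transcript with the run ended within 100 bases of it included 8 with a mean of at least 1 FPKM (fragments per kilobase of gene, scaled to library depth, the deposited unit). Their median log2 ratio of (FPKM + 1), knockdown over control, was -0.33, with 1 above 0, HIST1H2BD, which also has an annotated transcript of 789 bases without the run. The 16 such members with a transcript reaching further had a median of 0.10, with 10 above 0. This split was made after the values were seen, and near-identical copies count separately in both groups. Among the 8 these are HIST2H2AA3 and HIST2H2AA4. Among the 16 they are HIST2H3A with HIST2H3C and HIST2H4A with HIST2H4B. The 8 also hold HIST1H4J (-0.31). In its near-identical partner HIST1H4K the run was not found, and that pair summed to a log2 ratio of 0.34.

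Promoter windows also differ by class. RefSeq promoters on GRCh38.p14, from 250 bases before the start to 50 after it, were matched for 65 members and searched on both strands for 4 motifs that may overlap. The octamer ATTTGCAT, the binding sequence of OCT1, was in 11 of 16 H2A and 14 of 18 H2B windows, in 1 of 12 H3 windows, in 0 of 6 H1 and 0 of 13 H4 windows, and in 2.19% of all 27305 promoters. The heptamer AAACACA, known from H1 promoters, was in 6 of 6 H1 windows, in 1 of 16 H2A and 2 of 12 H3 windows, in no H2B or H4 window, and in 6.94% of all promoters. CCAAT was in every H1, H2A, H2B and H3 window, in 3 of 13 H4 windows and in 39.7% of all promoters, and TATAAA was in 3 of 6 H1, 12 of 16 H2A, 12 of 18 H2B, 10 of 12 H3 and 7 of 13 H4 windows, against 14.0%. The 1 H3 window with the octamer, that of HIST1H3D, is the same stretch as the window of HIST1H2AD and is counted under both classes. These matches describe letters in a window and not bound sites. Examples with 10 flanking bases on each side and the motif in capitals follow, each on the strand where the motif reads as written. Where an H2A and an H2B gene are named on 1 line, the windows of both hold the same octamer.

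HIST1H1C: gaggtggaacAAACACAacttgggagc

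HIST1H1E: gaggtgtaacAAACACAactcgggatc

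HIST1H2AC and HIST1H2BC: ttcatacctcATTTGCATagctctgccc

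HIST2H2AC and HIST2H2BE: cggagccctaATTTGCATaaggtggtta

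HIST1H2BK: tcttcaccttATTTGCATgagaggtcct

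The HIST1H1C window lies on the minus strand at chromosome 6, 26056421 to 26056720, that of HIST1H1E on the plus strand at 26156079 to 26156378, that of HIST1H2AC on the plus strand at 26123922 to 26124221 and that of HIST1H2BK on the minus strand at 27146809 to 27147108. The HIST2H2BE window lies on the minus strand at chromosome 1, 149886633 to 149886932. All 5 windows are on GRCh38.p14.

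The label of the knockdown library was checked by its target. HNRNPU had 75.4 FPKM in knockdown cells, against 239 in control cells, which is 31.5% of the control level, with an exact 95% counting interval of the FPKM ratio of 0.302 to 0.327. Steps between low values gave 39807025 reads behind the knockdown library and 31801650 behind the control library. The line's label was set beside epithelial markers: KRT18 had 81.6 FPKM in knockdown cells and 88.1 in control cells, and EPCAM had 13.7 in knockdown cells and 13.8 in control cells. CDH1, KRT19 and KRT20 were listed at 0 in both libraries, and none of 12 blood, fibroblast, muscle, liver and neural markers reached a mean of 1 FPKM.

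Clustered histone mRNAs were spread over a wide range of levels, and most were low. Of the 70 members, 13 were listed at 0 in both libraries, 1 (HIST1H3J) had 0 reads in the knockdown and 1 read in the control library, and 56 were above 0 in both. A value of 0 at these gene lengths allows up to 0.0954 to 0.207 FPKM in the knockdown library and 0.119 to 0.259 in the control library, for a count of 3 reads. A mean of at least 1 FPKM was reached by 40 members, and 14 reached 5 FPKM in the higher library. The summed level was 319.1 FPKM in knockdown cells and 356.6 in control cells, a ratio of 0.895, and the 5 members with the highest mean of both libraries made up 54.8% of it in knockdown cells and 58.8% in control cells. Over the 40 members the median log2 ratio was -0.09, with 16 above 0 and 24 below, beside a median of 0.00 and 50.4% above 0 over 10184 mRNA genes at the same minimum. Over the 13 members with a mean of 5 FPKM or more, the median was -0.26, and over the 56 above 0 in both libraries it was -0.02. In bulk RNA, a different share of cells in S phase and a different amount of histone mRNA per cell cannot be told apart.

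**Figure D1:**
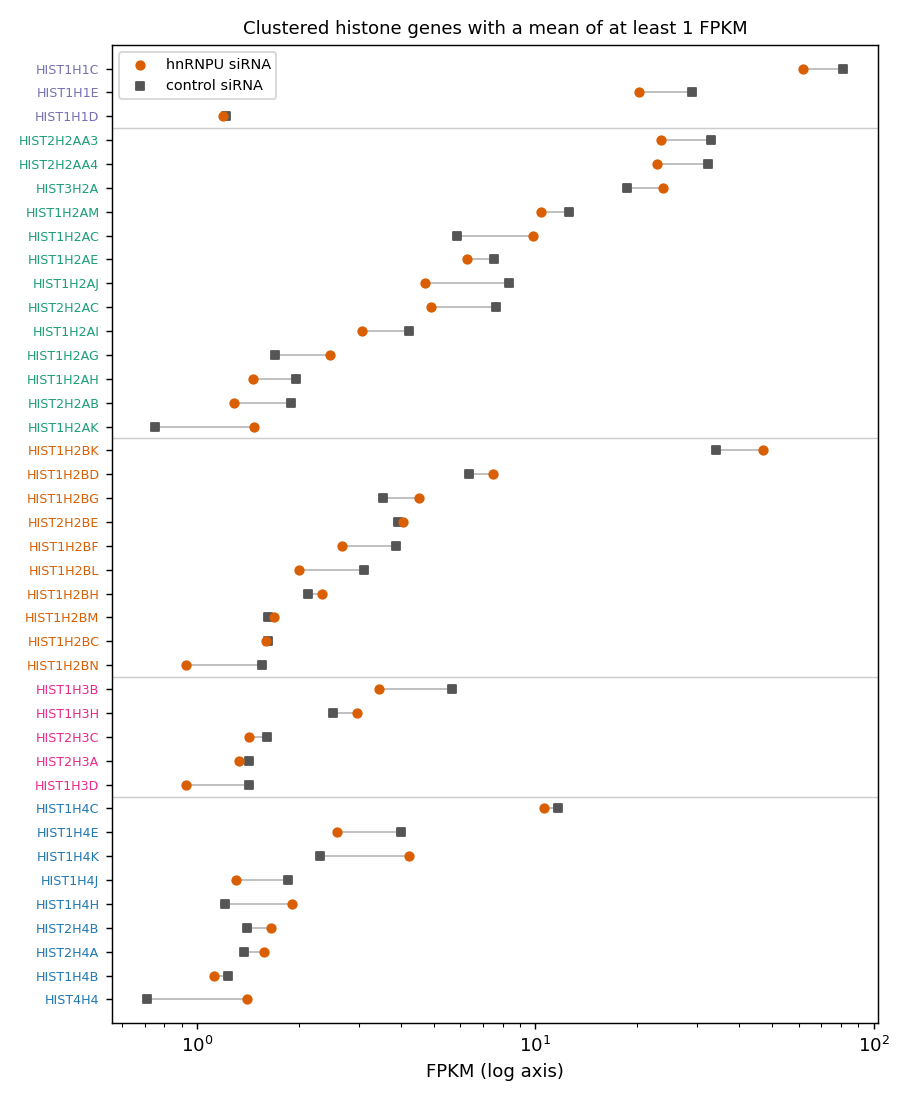
FPKM of the 40 clustered histone genes with a mean of at least 1 FPKM (x axis, logarithmic), grouped by class down the page, with circles for the hnRNPU siRNA library and squares for the control siRNA library, 1 library each. HIST1H1C, with 61.6 FPKM in the knockdown and 81.3 in the control library, is the highest.

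None of the 14 members with at least 5 FPKM differed 2-fold. Over all 7407 mRNA genes with that level, 0.203% were 2-fold higher and 0.621% 2-fold lower in the knockdown library. Past a log2 ratio of 0.5, 1 member was higher (HIST1H2AC) against a background of 5.76%, and 3 were lower (HIST1H2AJ, HIST2H2AC and HIST1H3B) against 5.68%. Both counts are small numbers out of 14. With a pseudocount of 5 FPKM both were 0, and after rescaling by the median ratio 6 members were past 0.5 lower. The intervals given below are exact 95% intervals of the FPKM ratio from recovered reads, and they cover counting error only and not the variation between cultures.

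The 2 abundant linker histone genes were lower in the knockdown library. HIST1H1C, the highest member, had 61.6 FPKM in knockdown cells and 81.3 in control cells, from 1795 reads in knockdown and 1893 in control cells; its log2 ratio was -0.40 and its FPKM ratio 0.758 (0.710 to 0.808). HIST1H1E had 20.2 FPKM in knockdown and 29.0 in control cells, a log2 ratio that rounds to -0.50 without reaching the threshold and an FPKM ratio of 0.697 (0.626 to 0.777). HIST1H1D differed little, at 1.20 FPKM in knockdown and 1.21 in control cells, and its interval of 0.592 to 1.65 was wide. The other 3 H1 genes, HIST1H1A, HIST1H1B and the testis form HIST1H1T, were listed at 0 in both libraries. The class summed to 83.0 FPKM in knockdown cells against 111 in control cells, a ratio of 0.744, and its median log2 ratio was -0.40 over 3 genes. HIST1H1C spans chromosome 6, 26055968 to 26056699 (minus strand) and HIST1H1E 26156559 to 26157343 (plus strand) on GRCh37.

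H2A genes were split, with more of them lower. HIST2H2AA3 had 23.4 FPKM in knockdown and 32.9 in control cells, and its copy HIST2H2AA4 had 22.9 in knockdown and 32.3 in control cells, for log2 ratios of -0.47 and -0.48. Together they had 46.3 FPKM in knockdown cells and 65.2 in control cells. Reads of these copies cannot be assigned to 1 of them, since none of the 50-base words of HIST2H2AA3 and 2.91% of those of HIST2H2AA4 are unique among the members. HIST1H2AM (10.4 FPKM in knockdown and 12.6 in control cells; -0.26) and HIST1H2AE (6.28 FPKM in knockdown and 7.53 in control cells; -0.23) were below the control, each with an interval that held 1. HIST2H2AC had 4.92 FPKM in knockdown cells and 7.66 in control cells, a log2 ratio of -0.55 and an interval of 0.482 to 0.870. Of the words of HIST2H2AC, 69.5% were unique among the members and 30.5% were shared with HIST2H2AA4, so its reads may not be its own alone. The lowest ratio of all 40 members was that of HIST1H2AJ, at 4.72 FPKM in knockdown and 8.38 in control cells, a log2 ratio of -0.71 and an interval of 0.417 to 0.749. Its transcript shares 83.7% of its words with HIST1H2AI (3.08 FPKM in knockdown and 4.22 in control cells), and the pair summed to 7.80 FPKM in knockdown cells and 12.6 in control cells, a log2 ratio of -0.63.

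HIST1H2AC and HIST3H2A went the other way. HIST1H2AC, the only member with at least 5 FPKM past 0.5 upward, had 9.81 FPKM in knockdown cells and 5.85 in control cells, from 663 reads in knockdown and 316 in control cells, with a log2 ratio of 0.66 and an interval of 1.46 to 1.92. HIST3H2A, the H2A gene of the small cluster on chromosome 1 (228645065 to 228645560, minus strand, GRCh37), had 23.9 FPKM in knockdown cells and 18.7 in control cells, a log2 ratio of 0.34 and an interval of 1.10 to 1.48. Among the 13 H2A genes that reached a mean of 1 FPKM, 4 were above 0 and 9 below, with a median of -0.27. The 9 count the copies HIST2H2AA3 and HIST2H2AA4 separately. Below 0, the intervals of HIST1H2AM, HIST1H2AE, HIST1H2AI, HIST1H2AH and HIST2H2AB held 1, and above 0 those of HIST1H2AG and HIST1H2AK did. The class of 17 summed to 118 FPKM in knockdown cells and 138 in control cells. Of the 17, HIST1H2AA and HIST1H2AL were at 0 in both, and the 7 others under 5 FPKM lay in the range of 0.690 to 3.08 FPKM in the knockdown library and of 0.555 to 4.22 in the control library.

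H2B and H4 were the classes with a higher sum in the knockdown library, and in H2B 1 gene, HIST1H2BK, held most of the sum. HIST1H2BK had 46.9 FPKM in knockdown cells and 34.1 in control cells, a log2 ratio of 0.45 and an interval of 1.27 to 1.50. HIST1H2BD, at 7.48 FPKM in knockdown and 6.37 in control cells, had a log2 ratio of 0.20 and an interval of 1.02 to 1.36. The other 14 detected H2B genes lay in the range of 0.0577 to 4.52 FPKM in the knockdown library and of 0.0723 to 3.91 in the control library, and HIST1H2BA and HIST1H2BB were at 0 in both. The 18 genes summed to 77.7 FPKM in knockdown cells and 65.8 in control cells, a ratio of 1.18. The median log2 ratio over 10 genes was 0.04, but it was -0.02 over the 16 genes above 0 in both libraries and -0.21 without the members listed over more than 1000 bases, a grouping made after the values were seen.

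H3 and H4 genes were low. HIST1H3B, which encodes an H3 of the replication-dependent form, was the only H3 gene to reach 5 FPKM, at 3.46 FPKM in knockdown cells and 5.66 in control cells, a log2 ratio of -0.58 and an interval of 0.435 to 0.854. HIST1H3A had 14 reads in knockdown and 3 in control cells and stayed under a mean of 1 FPKM. The 14 H3 genes summed to 13.2 FPKM in knockdown and 14.9 in control cells, with a median of -0.11 over 5 genes; 3 were at 0 in both, and the 10 others ranged up to 2.97 FPKM in knockdown and 2.53 in control cells. HIST1H4C, the leading H4 gene, had 10.6 FPKM in knockdown cells and 11.7 in control cells, a log2 ratio of -0.13 and an interval of 0.723 to 1.14 that held 1. HIST1H4K had 4.22 FPKM in knockdown and 2.31 in control cells, a log2 ratio of 0.66, and HIST1H4J, whose transcript holds all 50-base words of HIST1H4K, had 1.31 FPKM in knockdown and 1.85 in control cells, a log2 ratio of -0.31; summed, they had 5.53 FPKM in knockdown cells and 4.16 in control cells, a log2 ratio of 0.34. The 15 H4 genes summed to 27.6 FPKM in knockdown and 26.6 in control cells, with a median of 0.12 over 9 genes, 5 of them above 0; 3 were at 0 in both libraries.

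**Figure D2:**
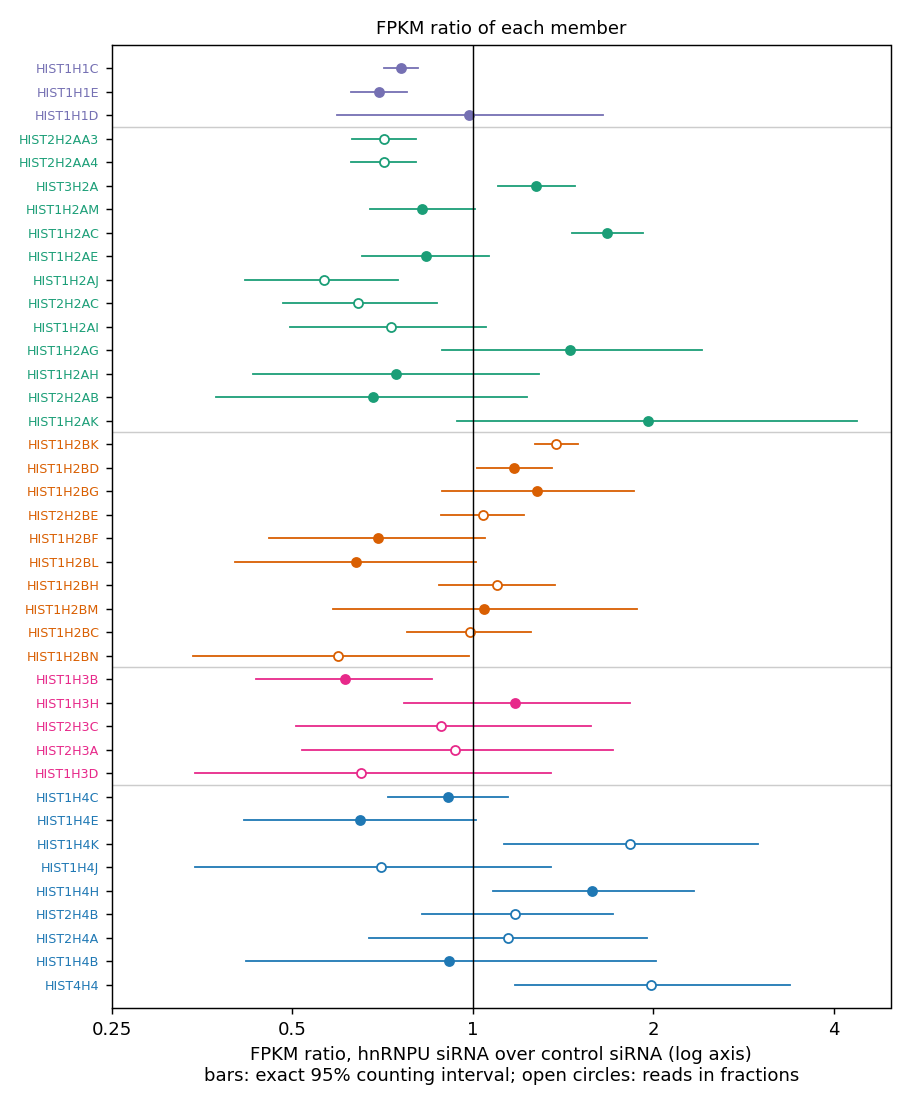
FPKM ratio of each of the 40 members, hnRNPU siRNA over control siRNA (x axis, logarithmic), coloured by class, with exact 95% counting intervals from the recovered reads. Filled circles are members with whole reads and open circles members whose reads came in fractions; HIST1H2AC (1.46 to 1.92) and HIST1H2BK (1.27 to 1.50) lie above 1 and HIST1H1C (0.710 to 0.808) below it.

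Reads of 23 members were recovered in fractions of a read, and 34 had whole reads. Fractions can come from shared reads, but also from the length used in the recovery. HIST1H3E, HIST4H4 and HIST1H2BH had fractions although 100% of their 50-base words were unique among the members. Fractions alone thus do not show that reads were shared. Median log2 ratios were -0.08 for the members with fractions and -0.10 for those with whole reads. Over the 31 members with a mean of 1 FPKM or more and at least 50% of their 50-base words unique, the median was -0.01, against -0.09 over all 40. The near-identical HIST2H3A and HIST2H3C summed to 2.76 FPKM in knockdown cells and 3.04 in control cells, a log2 ratio of -0.10, and HIST2H4A and HIST2H4B to 3.23 FPKM in knockdown and 2.78 in control cells, a log2 ratio of 0.16. HIST1H2AD lies within HIST1H3D on the same strand over 510 bases, and HIST1H4I lies within HIST1H2BK on the opposite strand. Use of strand could not separate HIST1H2AD from HIST1H3D. No source used here says if strand was used in counting, so it is not known if reads of HIST1H4I and HIST1H2BK were kept apart.

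By cluster, the HIST1 genes on chromosome 6 had a median of -0.13 (29 of 55 with a mean of at least 1 FPKM) and the HIST2 genes, listed on a scaffold, -0.11 (9 of 11). HIST2 summed to 64.2 FPKM in knockdown cells and 85.9 in control cells, and HIST1 to 229 in knockdown cells and 251 in control cells. The first stretch of HIST1 (34 genes, 25726291 to 26285844 on GRCh37) had a median of -0.10, and the second (21 genes, 27093912 to 27861669) -0.26. The sum of the second stretch, which holds HIST1H2BK, went against its median, at 85.7 FPKM in knockdown cells and 78.7 in control cells. The single HIST4 gene, HIST4H4 on chromosome 12, had 1.41 FPKM in knockdown cells and 0.711 in control cells, a log2 ratio of 0.49.

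Genes listed over a longer span, such as HIST1H2AC (14938 bases) and HIST1H2BK (8566 bases), were mostly higher in the knockdown library. That grouping was chosen after the values were seen, so it is a description and no test. Of 13 members listed over more than 1000 bases, 10 had a mean of at least 1 FPKM, and 9 of them were above 0, the exception being HIST1H3D at -0.33. The counting intervals of HIST2H2BE, HIST1H2BH, HIST2H4A and HIST2H4B held an FPKM ratio of 1, as did that of HIST1H3D. Those of HIST1H2AC, HIST1H2BK, HIST1H2BD, HIST1H4H and HIST4H4 lay above 1. Reads were recovered as whole in only 3 of the 10 (HIST1H2AC, HIST1H2BD and HIST1H4H), with a median of 0.40. The fractions in the others are not shown to be shared reads. The median of the 10 was 0.17, and the 13 summed to 80.7 FPKM in knockdown cells and 60.9 in control cells. The 57 members listed over 354 to 790 bases had a median of -0.26 over 30 genes with a mean of at least 1 FPKM, 7 of them above 0. They summed to 238 FPKM in knockdown cells and 296 in control cells. Listed span is not always the length behind the FPKM. The smallest length that fit the values was 2499 bases for HIST1H2BC, listed over 438, and 474 for HIST1H3D, listed over 2510. Within classes, 4 of 4 long-listed H2B genes were above 0 against 2 of 6 others, and 4 of 4 long-listed H4 genes, the near-identical HIST2H4A and HIST2H4B among them, against 1 of 5. In H3 it was 0 of 1 long-listed gene against 1 of 4 others. Other mRNA genes had medians of 0.00 over 10106 genes above 1000 bases and 0.05 over 33 genes at or under it. What a longer span in the table reflects (an intron, a late end or the annotation) was not tested.

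**Figure D3:**
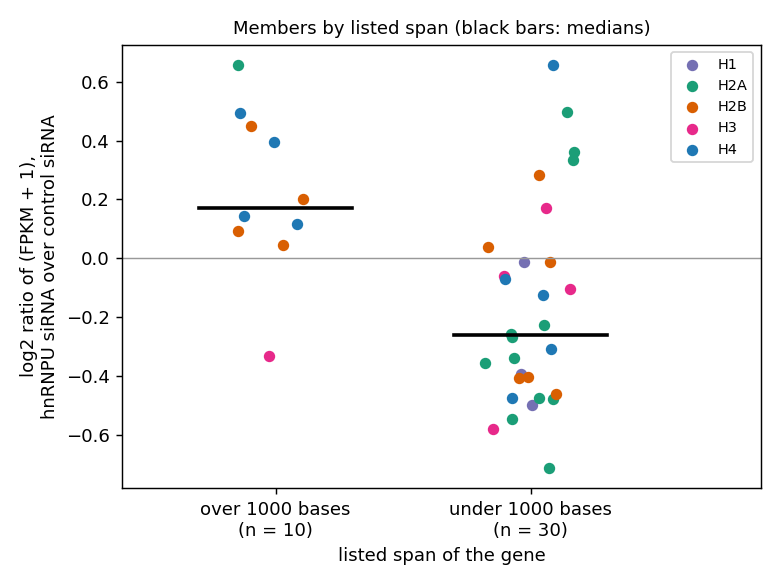
Log2 ratio of (FPKM + 1), hnRNPU siRNA over control siRNA, for the 40 members that had a mean of 1 FPKM or more, by listed span of the gene, with 1 point per gene coloured by class and black bars at the medians. The 10 genes listed over more than 1000 bases have a median of 0.17 and the 30 shorter ones a median of -0.26.

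Many H2A and H2B genes stand head to head and share a promoter region. There were 13 such pairs with starts within 500 bases, 12 of them of an H2A and an H2B gene, and in 8 of the 13 both members had a mean of at least 1 FPKM. Of these 8, 2 pairs were on the same side of 0 and 6 on opposite sides, but in each of the 6 the counting interval of at least 1 partner held an FPKM ratio of 1. HIST1H2AC (0.66) faced HIST1H2BC (-0.01), which had 1.60 FPKM in knockdown cells and 1.62 in control cells, across a gap of 267 bases. HIST1H2AH (-0.27), at 1.46 FPKM in knockdown and 1.96 in control cells, faced HIST1H2BK (0.45) across 223 bases. HIST2H2AC (-0.55) faced HIST2H2BE (0.05), at 4.07 FPKM in knockdown and 3.91 in control cells. In the first and the third of these pairs, both windows hold the octamer printed above.

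**Figure D4:**
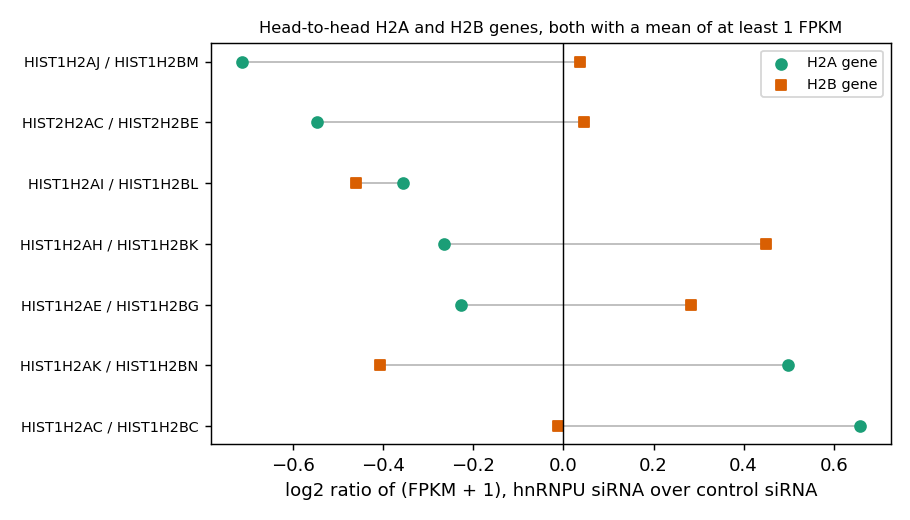
Log2 ratio of (FPKM + 1), hnRNPU siRNA over control siRNA (x axis), of the H2A gene (circle) and the H2B gene (square) in the 7 head-to-head H2A and H2B pairs in which both have a mean of at least 1 FPKM. Both lie on the same side of 0 in 1 pair, HIST1H2AI and HIST1H2BL.

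The 5 lists of related genes, chosen with earlier results of these data known, were set beside the members. Genes of histone mRNA processing and decay had a median log2 ratio of -0.06 over 32 genes, with 13 above 0; 0 were past 0.5 upward and 1 downward, and their sum was 1131 FPKM in knockdown cells and 1103 in control cells, against the sign of the median. SLBP, the stem-loop binding protein, had 82.4 FPKM in knockdown cells and 83.1 in control cells, a log2 ratio of -0.01. CASP8AP2, which recruits the cleavage factors, had 9.25 FPKM in knockdown and 9.66 in control cells (-0.06), and the U7 Sm-like proteins LSM10 (13.9 FPKM in knockdown and 15.9 in control cells; -0.18) and LSM11 (1.49 FPKM in knockdown and 1.63 in control cells; -0.08) were slightly lower. ZNF473, a U7-associated zinc finger protein, had 5.18 FPKM in knockdown and 3.65 in control cells, a log2 ratio of 0.41. At the ends of the list, the exonuclease XRN1 (-0.51) and the cleavage factor CSTF2 (-0.43) were lowest and LSM1 (0.45) was highest.

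Genes of histone gene transcription had a median of 0.04 over 15 genes. NPAT, the coactivator of histone genes in S phase, had 4.40 FPKM in knockdown cells and 5.09 in control cells, a log2 ratio of -0.18. CDC25A, a phosphatase that activates CDK2, was the 1 gene past 0.5, with 17.9 FPKM in knockdown and 11.7 in control cells and a log2 ratio of 0.57; CABIN1 had 0.34, and HIRA and the octamer binder POU2F1 had -0.37 and -0.36. S phase genes had a median of 0.04 over 25 genes and none past 0.5, from CCNE2 (-0.30) and CDT1 (-0.20) to GINS2 (0.37) and ORC1 (0.46). Histone chaperones had a median of 0.01 over 26 genes, which became -0.03 after rescaling by the median ratio and -0.00 by the upper quartile. HJURP, the chaperone of the centromeric H3, was the 1 past 0.5 downward, at 28.7 FPKM in knockdown cells and 43.1 in control cells (-0.57); ANP32E had -0.45 and IPO4 0.45.

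Replacement histones outside the clusters are made through the cell cycle mostly from genes outside S phase control that give polyadenylated mRNA. Their median was -0.27 over 10 of 15 genes, with 4 above 0. Summed, the 15 genes differed little, at 660 FPKM in knockdown cells and 680 in control cells, a ratio of 0.970. The macroH2A genes H2AFY2 (13.1 FPKM in knockdown and 19.7 in control cells; -0.55) and H2AFY (32.7 FPKM in knockdown and 45.6 in control cells; -0.47) were lowest. H1F0, a linker histone of resting cells, was at 57.5 FPKM in knockdown and 77.7 in control cells (-0.43). H3F3A, a gene of the replacement H3, was at 216 FPKM in knockdown and 171 in control cells (0.34) and CENPA, the centromeric H3, at 8.95 FPKM in knockdown and 7.52 in control cells (0.23).

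**Figure D5:**
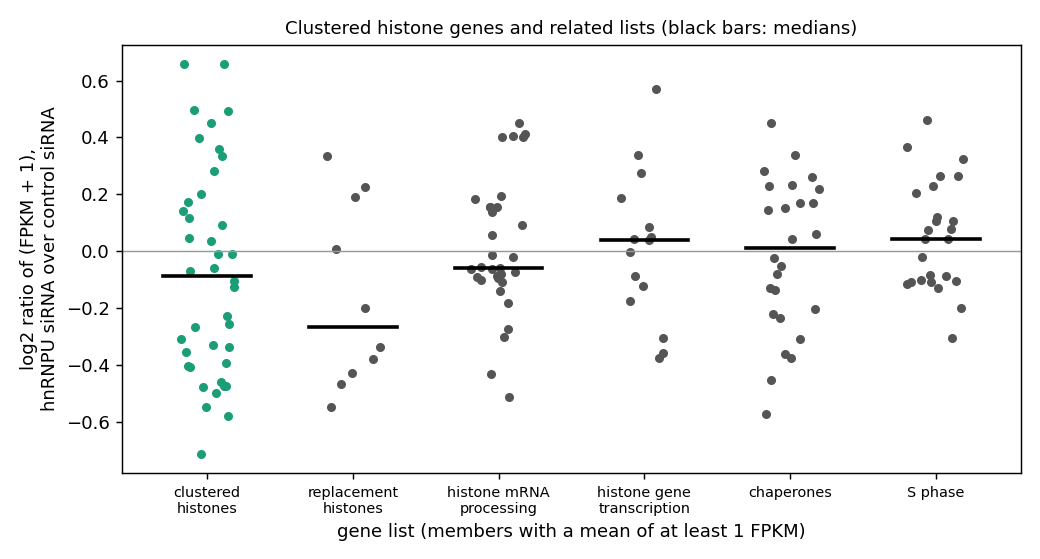
Log2 ratio of (FPKM + 1), hnRNPU siRNA over control siRNA, for genes with a mean of at least 1 FPKM in the clustered histone genes and in 5 related lists (x axis), 1 point per gene and black bars at the medians. The medians run from -0.27 for the replacement histones to 0.04 for the transcription and S phase lists.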

How the data were processed

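Trizol RNA of RKO cells was sequenced as 1 library per group, made by a Life Technologies method, per the labels. The deposited FPKM values (fragments per kilobase of gene, scaled to library depth) were computed by the authors. Bowtie and GRCh37 are named per the submitters' processing notes, without versions; no source used here gives the counter, annotation, read length or use of strand. FPKM divides by gene length as the authors defined it, so members of unequal listed span can be scaled differently.

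Ratios are log2 of (FPKM + 1) in the knockdown over the control library, and the pseudocount of 1 understates differences of low genes. No further scaling was applied. Medians use genes with a mean of at least 1 FPKM, and counts use genes that reached 5 FPKM in 1 library or both, at a log2 ratio of 0.5 or of 1. Read depth came from the commonest step of FPKM times length in short noncoding genes; 36.0% and 35.3% of 652 and 655 such genes were whole within 1e-05 of a read in the knockdown and control libraries. Reads of each member were then recovered, whole or in fractions down to 1 of 12, which do not by themselves show divided reads. For members listed over long spans the recovered reads are the smallest that the values allow. Exact 95% Clopper-Pearson intervals cover counting error only.

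The members and lists were chosen with earlier results of these data known. Named genes are HNRNPU, every member with at least 5 FPKM in either library, and of each list the 2 highest and 2 lowest, with SLBP, NPAT, CASP8AP2, LSM10, LSM11 and ZNF473; H1F0 and the other members named were chosen after their values were seen. List names were matched by symbol or RefSeq synonym. Python 3.11.15, pandas 2.3.3, numpy 2.4.6, scipy 1.17.1 and matplotlib 3.10.9 were used. Stem-loops and 50-base words come from GENCODE 29, promoters from RefSeq on GRCh38.p14. Recovery of depth and ratios was tried on simulated whole reads over the listed span. No reads were divided between genes there, so it does not check members with fractions. Pseudocounts, rescalings and minimum levels were varied.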

Additional observations from a re-analysis of the deposited data

Results flagged for a closer look

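Beside the 70 mRNA members, 19 rows named as histone cluster genes are not mRNA, and 12 of them were listed at 0 in both libraries. In 3 of them signal stood above 3 reads in both libraries. HIST2H2BC had 3.17 FPKM in the knockdown library and 2.84 in the control library, HIST2H2BD had 1.40 in the knockdown and 2.01 in the control library, and HIST1H3PS1 had 0.527 in the knockdown and 0.547 in the control library. All 3 hold fractions of a read, which alone do not show that reads were shared, and none was used in the comparisons above.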

How the results depend on the processing

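Of 191 alternative values, 183 were marked as the same and 8 as moved. A median was the same if it shifted by less than the median half-width of its members' counting intervals. That width was 0.55 in log2 for the clustered histone genes, so a median could cross 0 and still be marked the same. A count was also marked the same after a small change, such as from 3 to 4 with a pseudocount of 0.1. The mark is therefore a loose one. The median of the replacement histones was -0.20 over every member above 0 in both libraries. The count of members past 0.5 higher, 1 in the report, was 0 with a pseudocount of 5 FPKM, 2 at a minimum of 1 FPKM, 0 at a minimum of 20 FPKM and 3 with no minimum. The count past 0.5 lower, 3 in the report, was 0 with a pseudocount of 5, 6 after rescaling by the median ratio and 0 at a minimum of 20 FPKM. Some medians crossed 0: H2B to -0.02 over members above 0 in both libraries and to -0.21 without members listed over more than 1000 bases, H4 to -0.13 at a mean of at least 5 FPKM (1 gene), and chaperones to -0.03 and -0.00 under 2 rescalings. At a mean of at least 5 FPKM the medians were further from 0 in HIST1 (-0.23, 9 genes), HIST2 (-0.48, 3 genes), H2B (0.33, 2 genes), the long-listed (0.45, 3 genes) and the short-listed members (-0.43, 10 genes), and over members above 0 in both libraries the medians were nearer to 0 in the short-listed members (-0.13), HIST1 (-0.02) and H3 (-0.03). The 3 rescalings moved all log2 ratios by 0.03, -0.04 and -0.01. The grouping by listed span and the H2B value without long-listed members were chosen after seeing the data. Long-listed members stayed above 0 in 9 of 10 under every rescaling, and short ones in 7 of 30, or 9 with the same FPKM sum. A pseudocount cannot change the side of 0, so varying it was no check on these counts. At a mean of at least 0.5 FPKM, 10 of 13 long-listed and 11 of 36 short members were above 0. Over members above 0 in both libraries it was 10 of 13 and 14 of 43, and at a mean of at least 5 FPKM 3 of 3 and 1 of 10. The cause of these changes was not tested. Depth limits the low members, such as HIST1H1D with an interval of 0.592 to 1.65. No paired analysis was possible because only 1 library stands for each siRNA.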
